A study of Acidomyces sp. 'richmondensis' with 12 samples.

Results

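The transcripts described here were the most abundant in mycelium of the acid-loving fungus Acidomyces richmondensis, strain MEY-1. They are the 178 genes, of 10043 listed, whose mean level over all 12 RNA-seq libraries was 1000 FPKM or more. FPKM (fragments per length of transcript, adjusted for library size) is a level per length, so that genes can be set side by side. Membership therefore rests on the level itself, and that these genes are abundant is no result.

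Wild type (WT) and a strain deleted for the gene ArAceA (∆ArAceA) were grown in liquid MMC medium for 4 days. The washed mycelium was then moved to fresh MMC for 6 h, either without copper or with 15 mM CuCl2. Every culture of both strains, controls included, thus went through the same wash and transfer. Each of the 4 groups had 3 separate cultures, and each culture gave 1 library. Whether ∆ArAceA was a single clone, the sources used here do not give. The FPKM of a library summed to between 884111 and 926713.

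AceA of Aspergillus fumigatus is a transcription factor that switches on copper detoxification when the metal is in excess. In a fungus growing on sugar, a small set of genes commonly supplies much of the messenger RNA, among them genes for ribosomal proteins, translation factors, histones and enzymes of glycolysis. The files give locus identifiers only and do not pair them with gene names or products, so none of the 178 genes can be assigned to such a group here, and the level of ArAceA itself was not analysed here. FPKM are relative values: when some abundant transcripts take a larger share, all others take a smaller one. The number of cells and the amount of RNA per cell cannot be read from them.

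The mean levels ran from 1001 to 9109 FPKM, a 9.10-fold range, with a median of 1937 FPKM. There were 7 genes at 5000 FPKM or more, 80 between 2000 and 5000 FPKM and 91 below 2000 FPKM. At the limit itself, M433DRAFT_67321 and M433DRAFT_173745 were just inside with means of 1006 and 1001 FPKM, and M433DRAFT_72055 and M433DRAFT_56933 were just outside with 996 and 986 FPKM. All 178 genes passed the filter on low values. In every one of the 12 libraries 153 of them stood at 1000 FPKM or more, so for 25 genes at least 1 library lay below the limit. A further 29 genes reached 1000 FPKM in at least 1 group mean without reaching it over all libraries, and of these 12 were highest in ∆ArAceA without copper.

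The 178 genes, 1.77% of those listed, held 49.4% of the FPKM in WT on average and less in ∆ArAceA. In WT without copper their share was 48.9, 49.5 and 49.9% in the 3 libraries, and in WT with copper 49.7, 49.2 and 49.2%. In ∆ArAceA it was 43.6, 43.5 and 43.4% without copper and 45.7, 46.3 and 45.6% with copper. The WT groups overlapped each other, both ∆ArAceA groups lay below every WT library, and the ∆ArAceA libraries with copper lay between the other ∆ArAceA libraries and WT. The shares, as mean ± SD with n = 3 cultures a group (the form used throughout), were 49.4 ± 0.505% in WT, 49.3 ± 0.283% in WT with copper, 43.5 ± 0.121% in ∆ArAceA and 45.9 ± 0.349% in ∆ArAceA with copper. No test was made of this sum, since its members were chosen on these values.

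**Figure D1:**
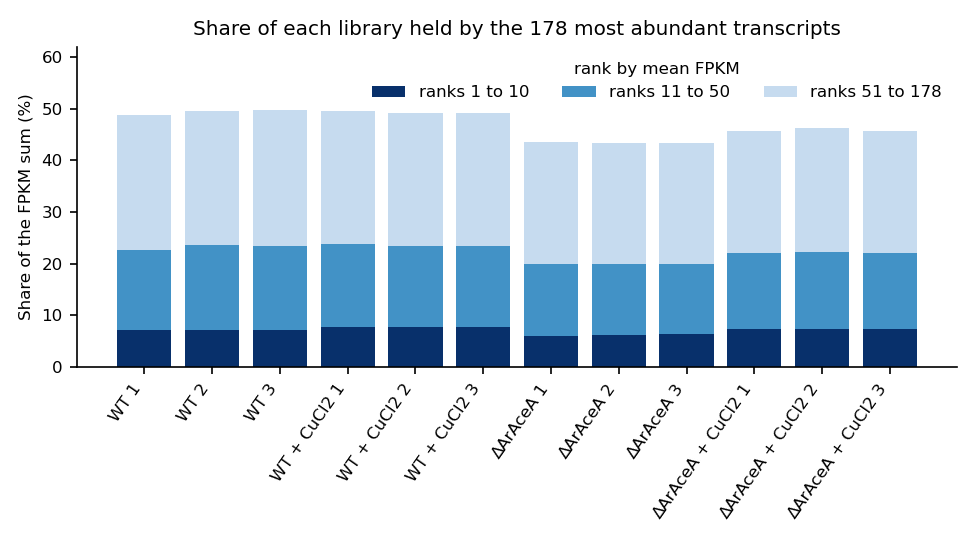
Share of the FPKM sum (%) held by the 178 members in each of the 12 libraries, stacked by rank of mean FPKM. The 3 ∆ArAceA libraries without copper are the lowest, at 43.4 to 43.6%, and the 6 WT libraries stand at 48.9 to 49.9%.

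The lower share in ∆ArAceA was spread over many genes. Between WT and ∆ArAceA without copper, 137 members took a smaller part of the library and 41 a larger part, and these parts summed to -8.77 and 2.87 percentage points. The largest single change downwards was -0.265 points, in M433DRAFT_68557, and the largest upwards 0.303 points, in M433DRAFT_155769. The net change was -5.90 points with these 2 genes and -5.94 points without them. The 10 most abundant genes held 7.13 ± 0.062% in WT, 7.68 ± 0.037% in WT with copper, 6.11 ± 0.142% in ∆ArAceA and 7.31 ± 0.078% in ∆ArAceA with copper. For these 10 the ∆ArAceA libraries with copper lay above WT without copper, whereas the 128 genes of ranks 51 to 178 held 26.2 ± 0.263% in WT and 25.8 ± 0.080% in WT with copper, against 23.6 ± 0.092% and 23.8 ± 0.227% in ∆ArAceA.

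M433DRAFT_52285, the most abundant transcript, was first in 10 of 12 libraries and second in the others. It stood at 9105, 8316 and 8492 FPKM in WT, 9505, 9392 and 9348 FPKM in WT with copper, 8524, 8850 and 9084 FPKM in ∆ArAceA, and 9430, 10171 and 9095 FPKM in ∆ArAceA with copper. Its groups overlapped between the genotypes, but in each genotype the libraries with copper lay above those without. The log2 change with copper was 0.12 in ∆ArAceA (SE 0.046, limma adjusted p = 0.0475) and 0.13 in WT (SE 0.046, limma adjusted p = 0.0715). Leaving out replicate 1 or 2 of ∆ArAceA, without or with copper, put the limma adjusted p in ∆ArAceA at 0.0735 to 0.227. The 10 highest genes of the 4 groups made a pool of 15, and 6 were among the 10 in every group.

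Among the 10, M433DRAFT_155769 was higher in ∆ArAceA. It stood at 5358, 3169 and 4839 FPKM in WT, against 6773, 7116 and 7270 FPKM in ∆ArAceA. In ∆ArAceA its mean of 7053 FPKM was the second highest. M433DRAFT_156036 was close, with a mean of 6971 FPKM, and was the higher of the 2 genes in replicates 1 and 3. The WT and ∆ArAceA groups of M433DRAFT_155769 did not overlap, and the difference was 0.70 in log2 (SE 0.174, limma adjusted p = 0.00608). The WT libraries spread widely, with an SD of 25.7% of the mean. For this comparison the authors' deposited table gave a log2 ratio of 0.49 with a Q value of 0.0599. M433DRAFT_68557 went the other way, with 5465, 6061 and 6159 FPKM in WT against 3244, 3372 and 3580 FPKM in ∆ArAceA. With copper it stood at 6393, 6546 and 6240 FPKM in WT, against 4174, 4244 and 4219 FPKM in ∆ArAceA, so that no ∆ArAceA library reached any WT library. Its fitted differences between genotypes were -0.79 without copper and -0.60 with copper (SE 0.048 for both, limma adjusted p = 1.31e-08 and 5.24e-07).

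The question of how each transcript moved with copper and genotype was put to the whole table of 8741 genes with limma on log2(FPKM + 1), and a gene was called at an adjusted p under 0.05. Fitted changes are differences on that log2 scale. The members' means were not chosen on any contrast, but a gene high in only 1 group can enter through that group. In 157 members all 4 group means were at 1000 FPKM or more.

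Without copper, most of the abundant transcripts were lower in ∆ArAceA than in WT, by a median of -0.28 on the log2 scale. Of the 178 members 121 were lower, 25 were higher and 32 were not called. Over all genes tested 58.7% were called, 17.9% lower and 40.8% higher. The members' median log2 difference was -0.28, with quartiles at -0.39 and -0.08, against a median of 0.12 over all genes tested. In 139 members (78.1%) no library of one genotype reached the other's range, which was so in 62.1% of all genes tested. The scaling of the libraries bears on this baseline. When the median gene was put near 0 by median-of-ratios scaling (-0.01 over all genes), the members' median was -0.42, with 138 lower and 17 higher. All 121 lower calls stayed under that scaling, and 17 of the 25 higher calls. Over all genes it gave 31.7% lower and 30.9% higher, so that the excess of higher calls among all genes was not kept.

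By abundance, the members had the lowest median of 6 classes. In FPKM as deposited the 5 classes of lower level had medians above 0, and under median-of-ratios scaling 4 of them were below 0, at -0.06 to -0.11, with the members at -0.42. Genes with means of 300 to 1000 FPKM had a median log2 difference of 0.05, with 113 higher and 90 lower of 297, and genes below 10 FPKM one of 0.30. Within the members the medians were -0.35 for ranks 1 to 10, -0.33 for ranks 11 to 50 and -0.25 for ranks 51 to 178. Of these rank groups 8 of 10, 33 of 40 and 80 of 128 genes were called lower. The classes were cut on the mean over all libraries and are given as a description.

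**Figure D2:**
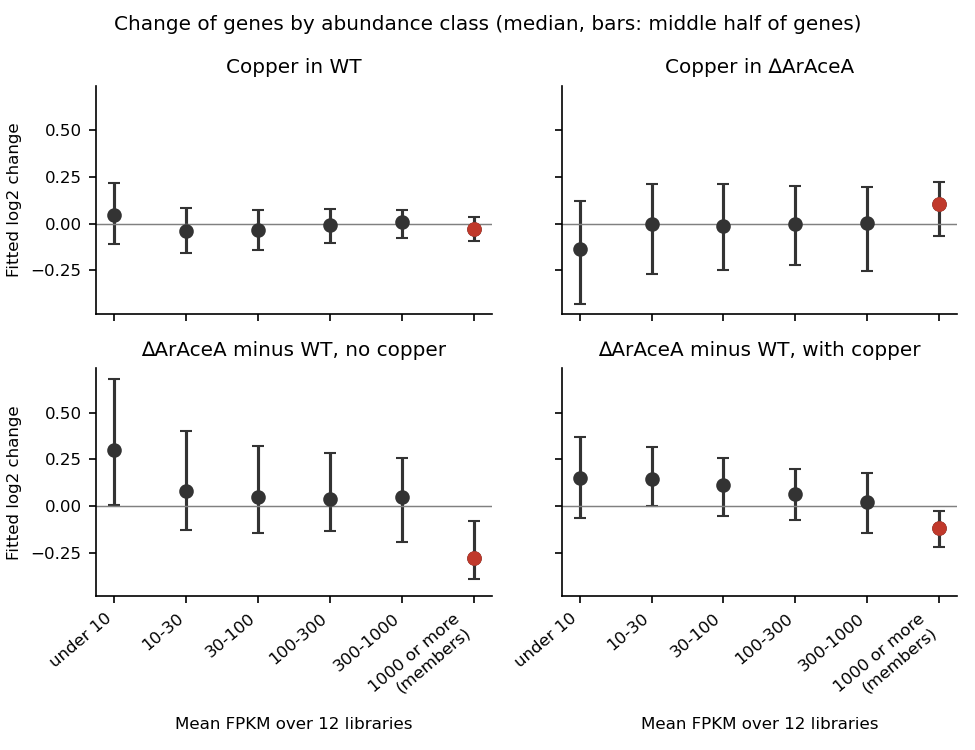
Median fitted log2 change (points) and interquartile range of genes (bars) in 6 classes of mean FPKM, for 4 comparisons. The members, in red at the right of each panel, stand at -0.28 for ∆ArAceA minus WT without copper, below every other class.

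In size the differences were mostly modest, and 144 of the 178 lay within 0.5 of no change on the log2 scale. Called and at least 2-fold lower were 5 members, and at least 2-fold higher 3 (0.767% and 7.99% of all genes tested). M433DRAFT_6915 had 2878, 3095 and 2505 FPKM in WT against 849, 785 and 825 FPKM in ∆ArAceA, a 3.45-fold lower mean (log2 -1.78, SE 0.074, limma adjusted p = 5.72e-10). M433DRAFT_69260 had 2704, 1420 and 2769 FPKM in WT against 611, 609 and 447 FPKM in ∆ArAceA, a 4.14-fold lower mean with a wide spread in WT (SE 0.304 on the log2 scale, adjusted p = 0.000389 by limma). Neither pair of groups overlapped, and M433DRAFT_69260 is a member through the WT groups, both of its ∆ArAceA means being below 1000 FPKM.

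A pair of members led the higher genes in ∆ArAceA without copper. M433DRAFT_140019 had 305, 322 and 341 FPKM in WT against 1468, 1287 and 1220 FPKM in ∆ArAceA, a 4.10-fold higher mean (log2 2.03, SE 0.096, limma adjusted p = 4.79e-09). It is a member through the ∆ArAceA groups, since both WT group means were below 1000 FPKM, so that a genotype difference was built into its choice. M433DRAFT_107252 had 1142, 961 and 1121 FPKM in WT against 3224, 3154 and 3014 FPKM in ∆ArAceA, a 2.91-fold higher mean (log2 1.55, SE 0.060, limma adjusted p = 1.87e-10).

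With copper, the abundant transcripts again stood lower in ∆ArAceA than in WT, by less. There 85 members were lower, 16 were higher and 77 were not called. Over all genes tested 46.7% were called, 11.4% lower and 35.4% higher. The members' median log2 difference was -0.12, against 0.12 over all genes tested, and 161 of 178 lay within 0.5 of no change. Under median-of-ratios scaling, which brought the median of all genes to 0.00, the members' median was -0.24 with 140 lower and 10 higher, and over all genes 21.5% were lower and 21.7% higher. The authors' deposited table had 147 members lower and 11 higher at Q under 0.05 for the same groups, which is 88.8% of members against 32.8% of all genes with a value.

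The genotype comparisons without and with copper share no library. Of the 121 members lower without copper, 72 were also lower with copper, 45 were not called and 4 were higher. Lower in both were thus 40.4% of members and 4.84% of all genes tested. The 72 members lower in both had a median level of 2813 FPKM in WT, 2694 FPKM in WT with copper, 2110 FPKM in ∆ArAceA and 2266 FPKM in ∆ArAceA with copper. Of the 25 members higher without copper, 8 were also higher with copper, 13 were not called and 4 were lower. Higher in both were thus 8 of 178 members and 1749 of the 8741 genes tested.

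**Figure D3:**
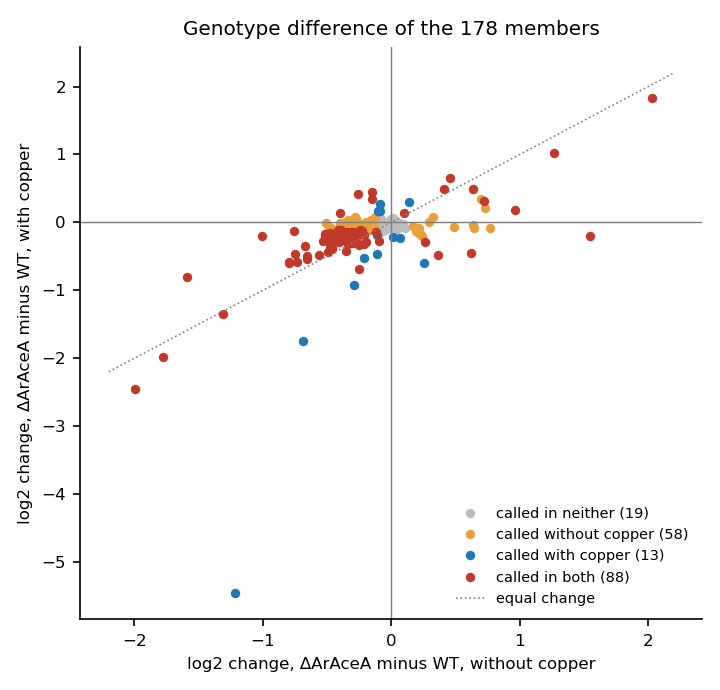
Fitted log2 difference of ∆ArAceA from WT for each of the 178 members, without copper (horizontal axis) and with copper (vertical axis), coloured by where it was called. Most points lie left of 0, with medians of -0.28 without copper and -0.12 with copper, and the 88 members called in both comparisons include 72 that were lower in both.

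With copper, 5 members were called at least 2-fold lower in ∆ArAceA and 2 at least 2-fold higher (1.3% and 2.72% of all genes tested). M433DRAFT_69260 stood at 904, 1449 and 987 FPKM in WT against 196, 250 and 157 FPKM in ∆ArAceA, a 5.53-fold lower mean (log2 -2.46, SE 0.304, limma adjusted p = 0.000188). M433DRAFT_6878 stood at 1007, 1434 and 976 FPKM in WT against 5.09, 209 and 12 FPKM in ∆ArAceA (log2 -5.46, SE 1.11, limma adjusted p = 0.00398). The authors' deposited table gave the latter a log2 ratio of -1.02 with a Q value of 0.0559. Both genes are members through the WT groups, where their means were above 1000 FPKM, while both ∆ArAceA group means were below it, so that a genotype difference was built into their choice.

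M433DRAFT_140019 was higher in ∆ArAceA with copper, with 2146, 1970 and 2108 FPKM against 664, 604 and 496 FPKM in WT, a 3.53-fold difference (log2 1.83, SE 0.096, limma adjusted p = 3.55e-08). M433DRAFT_154792 was also higher, with 1312, 1334 and 1176 FPKM against 608, 727 and 549 FPKM in WT, a 2.03-fold difference (log2 1.03, SE 0.158, limma adjusted p = 0.000449). Its WT libraries with copper lay below the limit of 1000 FPKM and its ∆ArAceA libraries with copper above it. A genotype difference was thus partly built into its choice. In these 4 genes the genotypes did not overlap, as was so in 131 members (73.6%) and in 58.3% of all genes tested.

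Copper in WT moved the abundant transcripts about as often as genes at large. There 20 members rose, 22 fell and 136 were not called, so that 23.6% were called against 21.4% of all genes tested (10.6% higher and 10.7% lower). The members' median log2 change was -0.03, and 93.8% of them lay within 0.5 of no change, against 93.4% of all genes tested. Called and at least 2-fold changed were 0 members upwards and 1 downwards (1.2% and 0.183% of all genes tested). When only the 6 WT libraries were fitted, 16 members rose and 10 fell.

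M433DRAFT_156112 rose most, from 1428, 1197 and 1411 FPKM to 2427, 2560 and 2459 FPKM, a 1.85-fold change of the mean (log2 0.89, SE 0.082, limma adjusted p = 1.05e-05). M433DRAFT_140019 rose 1.82-fold from the values given above (log2 0.85, SE 0.096, limma adjusted p = 7.08e-05). Among the 10 most abundant, M433DRAFT_114229 rose from 4563, 4051 and 4318 FPKM to 6227, 6929 and 6344 FPKM (log2 0.59, SE 0.060, limma adjusted p = 1.56e-05). In all 3 genes the groups without and with copper did not overlap.

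M433DRAFT_68275 fell from 1768, 1932 and 1930 FPKM to 1188, 1315 and 1243 FPKM in WT, with no overlap (log2 -0.59, SE 0.052, limma adjusted p = 4.56e-06). In ∆ArAceA it stood at 1691 ± 77.3 FPKM without and 1703 ± 65.9 FPKM with copper. M433DRAFT_154792 fell from 1119, 744 and 1148 FPKM to the copper values given above (log2 -0.66, SE 0.158, limma adjusted p = 0.0149), and the call rested on single libraries. The log2 change was -0.57, -0.55 and -0.64 without WT replicate 1, WT replicate 3 and WT with copper replicate 1, with limma adjusted p of 0.0543, 0.0528 and 0.0512.

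M433DRAFT_69260 was the 1 member with a called change of over 2-fold in WT (log2 -1.01, SE 0.304, limma adjusted p = 0.0449), but its groups overlapped, with 1420 FPKM in the lowest WT library and 1449 FPKM in the highest one with copper. That call was lost without WT replicate 1 (-0.86), WT replicate 3 (-0.85), WT with copper replicate 1 (-0.88) or WT with copper replicate 3 (-0.94).

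In ∆ArAceA, copper moved most of the abundant transcripts, and mainly upwards. There 83 members rose, 34 fell and 61 were not called, which is 65.7% called against 56.2% of all genes tested (24.7% higher and 31.5% lower). The members' median log2 change was 0.11, with quartiles at -0.07 and 0.23, against -0.04 over all genes tested. The authors' deposited table had 105 members higher and 33 lower at Q under 0.05, which is 77.5% of members against 47.0% of all genes with a value. By rank, 9 of the 10 most abundant members rose and 0 fell. Without ∆ArAceA replicate 1, ∆ArAceA replicate 2 or ∆ArAceA with copper replicate 1 only 6 of the 10 were called as rises, and without ∆ArAceA with copper replicate 2 or replicate 3 there were 7. Of ranks 11 to 50 there were 22 that rose and 4 that fell, while of ranks 51 to 178 there were 52 and 30. The member of the 10 without a call was M433DRAFT_155769, at 7053 ± 255 FPKM without and 8414 ± 464 FPKM with copper. Its groups did not overlap (log2 0.25, SE 0.174, limma adjusted p = 0.243), with the spread taken from all 4 groups. The authors' deposited table gave it a log2 ratio of 0.30 with a Q value of 2.09e-09.

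The rises were small. Only 1 member rose and 6 fell by at least 2-fold (1.91% and 4.21% of all genes tested). M433DRAFT_130638 rose from 466, 477 and 511 FPKM to 1340, 1363 and 1309 FPKM, a 2.76-fold change (log2 1.46, SE 0.078, limma adjusted p = 1.18e-08). M433DRAFT_58653 rose from 838, 922 and 1016 FPKM to 1467, 1566 and 1510 FPKM, a 1.64-fold change (log2 0.71, SE 0.061, limma adjusted p = 4.94e-07). With copper, M433DRAFT_58653 thereby stood at 1514 ± 49.5 FPKM in ∆ArAceA and 1525 ± 73.7 FPKM in WT.

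The falls in ∆ArAceA were larger in single genes. M433DRAFT_6878 had 937, 1015 and 840 FPKM without copper and 5.09, 209 and 12 FPKM with copper (log2 -5.19, SE 1.11, limma adjusted p = 0.00389). The 3 copper libraries differed widely among themselves, and without ∆ArAceA with copper replicate 2 the change was -6.71, against -4.15 without replicate 1 and -4.70 without replicate 3. The authors' deposited table gave it a log2 ratio of -1.08 with a Q value of 0.054 in this comparison. In WT without copper it had 2499, 1480 and 2728 FPKM. M433DRAFT_69260 fell from the 447 to 611 FPKM given above to 196, 250 and 157 FPKM, without overlap (log2 -1.47, SE 0.304, limma adjusted p = 0.00276).

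**Figure D4:**
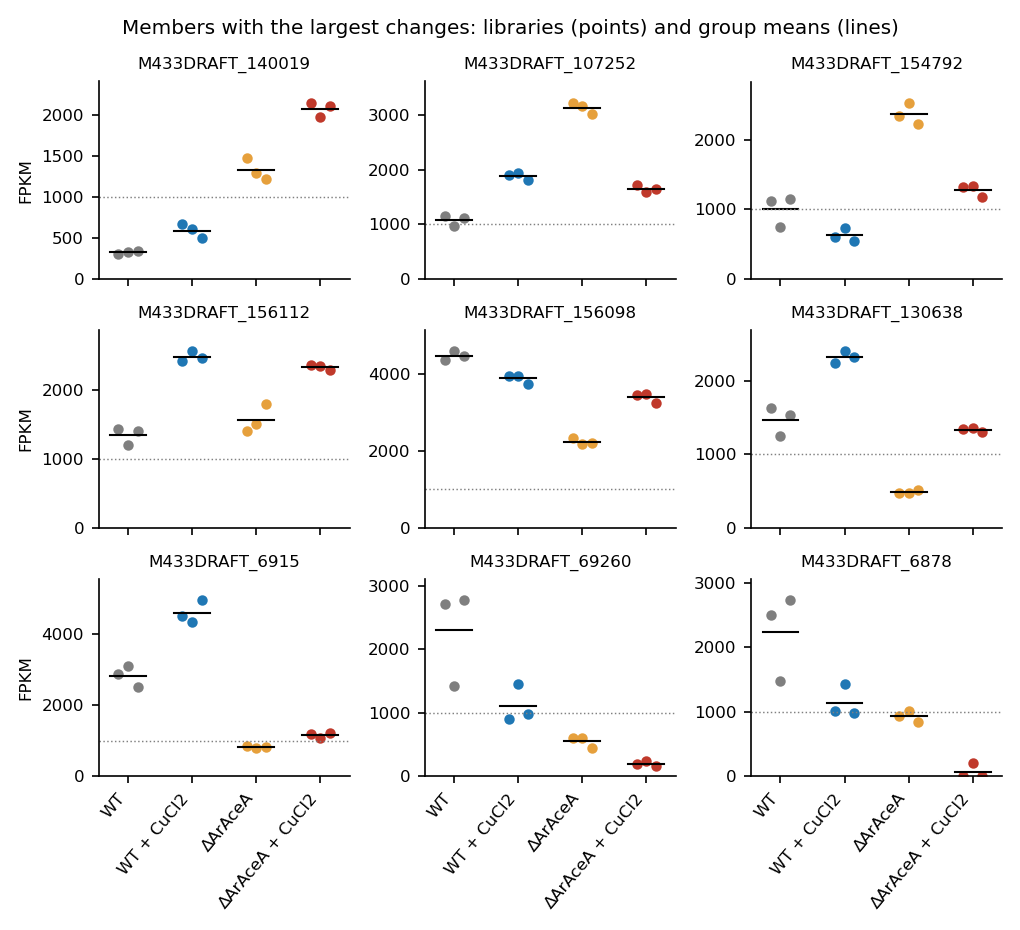
FPKM in each library (points) and group means (lines) of 9 members with large changes, each panel with its own linear axis from 0 and a dotted line at 1000 FPKM. M433DRAFT_6915 stands at 785 to 849 FPKM in ∆ArAceA against 2505 to 3095 FPKM in WT, and M433DRAFT_6878 at 5.09 to 209 FPKM in ∆ArAceA with copper.

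The copper responses of the genotypes, which share no library, are set side by side here. There were 12 members that rose in both and 7 that fell in both, which is 6.74% and 3.93% of members against 4.58% and 4.44% of all genes tested. A further 66 rose in ∆ArAceA without a call in WT (37.1% against 17.8% of all genes tested) and 24 fell so (13.5% against 24.2%). In opposite directions 8 members were called, 4.49% against 5.19% of all genes tested. A call in one genotype alone does not show that the responses differ.

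The test of the difference itself called 98 members, 73 with a more positive response in ∆ArAceA and 25 with a more negative one. Over all genes tested 45.8% were called, 20.2% more positive and 25.6% more negative. The members' median difference was 0.13 on the log2 scale, against -0.03 over all genes tested. Called with a difference of at least 2-fold were 0 members on the positive side and 2 on the negative side (1.05% and 4.77% of all genes tested). M433DRAFT_6878 had a fitted difference of -4.24 that was not called (limma adjusted p = 0.0559).

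Among called members M433DRAFT_156098 had the most positive difference. In WT it went from 4382, 4594 and 4483 FPKM to 3956, 3961 and 3751 FPKM with copper, and in ∆ArAceA from 2328, 2176 and 2202 FPKM to 3446, 3485 and 3259 FPKM. The difference of responses was 0.81 (SE 0.058, limma adjusted p = 4.09e-07). M433DRAFT_130638 followed at 0.79 (SE 0.110, limma adjusted p = 9.92e-05), having risen 1.58-fold in WT from 1639, 1251 and 1533 FPKM to 2252, 2404 and 2331 FPKM.

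Among called members M433DRAFT_107252 had the most negative difference and moved in opposite directions. In WT it rose to 1898, 1944 and 1815 FPKM with copper, and in ∆ArAceA it fell to 1715, 1588 and 1639 FPKM from the 3014 to 3224 FPKM given above. The difference was -1.74 (SE 0.084, limma adjusted p = 1.18e-08). M433DRAFT_156623 stood at 1544, 1104 and 1707 FPKM in WT without copper, and at 1125, 1196 and 1006 FPKM with it. In ∆ArAceA it fell from 1960, 2204 and 2453 FPKM to 831, 838 and 761 FPKM, and the difference was -1.07 (SE 0.205, limma adjusted p = 0.00175).

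Of the 121 members lower in ∆ArAceA without copper, 72 rose with copper in ∆ArAceA and 6 fell. The 72 are 59.5% of these members, and of all genes lower in ∆ArAceA without copper 61.4% rose in the same way. The median levels of these 72 were 2738 FPKM in WT, 2750 FPKM in WT with copper, 2028 FPKM in ∆ArAceA and 2448 FPKM in ∆ArAceA with copper. Together they held 24.0 ± 0.593%, 24.4 ± 0.175%, 18.3 ± 0.166% and 22.2 ± 0.157% of the FPKM in the same order. Of the 25 members higher in ∆ArAceA without copper, 17 fell with copper in ∆ArAceA and 4 rose, and the 17 are 68% of them against 58.9% of all genes higher in ∆ArAceA without copper. The median levels of these 17 were 1556, 1714, 2370 and 1612 FPKM in the same order of groups. Both comparisons use the ∆ArAceA libraries without copper, so the counts are given as a description of these libraries and not as separate evidence.

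**Figure D5:**
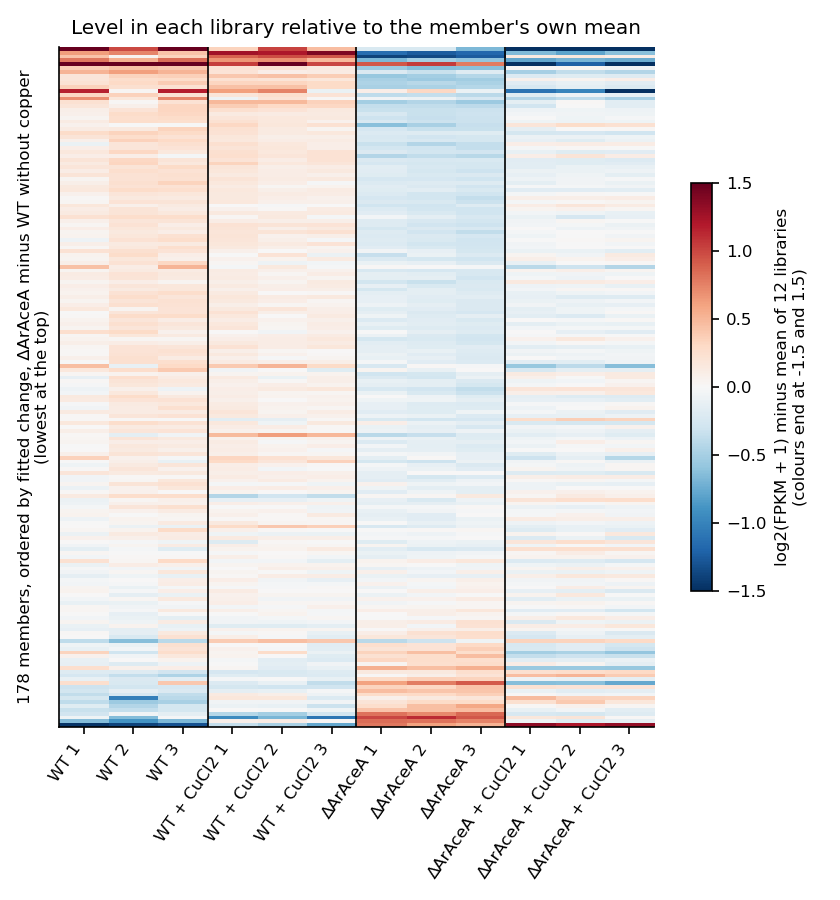
Level of each of the 178 members (rows) in each of the 12 libraries (columns), as log2(FPKM + 1) minus the member's own mean, ordered by the fitted difference of ∆ArAceA from WT without copper. The block of 121 members called lower in ∆ArAceA without copper fills most of the upper part and is blue in the ∆ArAceA libraries without copper.

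Spread over the 12 libraries, which includes differences between groups, was below 20% of the mean in most members and far larger in a few. The coefficient of variation (SD over mean, 12 libraries) had a median of 11.3%, was under 10% in 65 members, 10 to 20% in 81, 20 to 50% in 26 and 50% or more in 6. The steadiest were M433DRAFT_143866 at 2.99%, M433DRAFT_71158 at 3.65% and M433DRAFT_82096 at 3.90%. M433DRAFT_143866 had group means of 1095, 1123, 1144 and 1110 FPKM in WT, WT with copper, ∆ArAceA and ∆ArAceA with copper. The most variable were M433DRAFT_69260 at 86.5%, M433DRAFT_6878 at 78.7% and M433DRAFT_6915 at 67.2%. In 9 members no comparison of the 5 gave a call, among them M433DRAFT_143866 and M433DRAFT_71158, and 11 members were called in all 5. The same counts were not made over all genes tested, so these cannot be set against genes at large. The coefficient is of the same values that chose the members and is a description.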

How the data were processed

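Mycelial total RNA went into Illumina libraries after TRIzol isolation and a kit clean-up, per the labels' protocols. The authors deposited FPKM per gene and library, per the file headers. That deposited table further gives log2 ratios between groups and their Q values, as the authors computed them. HISAT2 2.1.0, RSEM 1.2.8 and DESeq2 are named per the submitters' processing notes, with no role stated. The genome build, annotation, strand setting and treatment of reads shared between similar genes are not given in the sources used here. Absolute depth is unknown. The lowest values of 739 genes put relative depths between 0.989 and 1.02. Only values close to each gene's own lowest entered, so a large difference of depth could not show. Between any 2 libraries at most 0.332% of values of at least 10 FPKM were equal.

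The test was limma 3.58.1 in R 4.3.3 on log2(FPKM + 1), with mean-variance trend and robust moderation, for the 8741 genes with at least 1 FPKM in at least 3 libraries (1302 were dropped). A single fit over 4 groups gave 5 two-sided comparisons with Benjamini-Hochberg adjustment over all genes tested. Groups and replicates came from the sample titles, and 0 value columns were unmapped. On simulated data for ∆ArAceA against WT without copper, with 8599 genes, 85% of 60 abundant genes changed by 0.35 on the log2 scale were called, and 8 of 8346 unchanged genes. Besides these 60, only 100 genes were changed 2-fold and 93 genes 4-fold, in random directions and with independent noise. In the data 58.7% of genes were called in this comparison, so the simulated rates do not give the error rate of these calls. Members and lists were chosen with earlier results of these data known. Named genes were the 10 of highest mean, the largest called changes, the 3 least and 3 most variable, and those at the limit. The largest changes were of separated groups, except for the difference of responses, where separation was not asked for. They were 3 each way in the plan and 2 here because the genes carry no names. Named genes are also described in other comparisons. Values for M433DRAFT_154462 in the closing section were chosen after seeing them. Groups by product had been planned and were not formed. Alternatives were another pseudocount, no filter, other scalings, moderation and member limits, fits on fewer groups, a replicate block and leaving out each library.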

Additional observations from a re-analysis of the deposited data

Results flagged for a closer look

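The copper response differed between the genotypes, by limma's test of the difference itself, in 98 members (55.1%, against 45.8% of all genes tested). The following named members were among them, with the response in ∆ArAceA minus that in WT on the log2 scale. More positive in ∆ArAceA were M433DRAFT_156098 (0.81), M433DRAFT_130638 (0.79), M433DRAFT_68275 (0.60), M433DRAFT_481620 (0.54), M433DRAFT_58653 (0.50), M433DRAFT_89846 (0.33), M433DRAFT_175367 (0.27), M433DRAFT_153201 (0.27), M433DRAFT_97032 (0.21), M433DRAFT_68557 (0.19) and M433DRAFT_82096 (0.14). More negative were M433DRAFT_107252 (-1.74), M433DRAFT_156623 (-1.07), M433DRAFT_114229 (-0.44) and M433DRAFT_156112 (-0.31). Of the 10 most abundant members, 6 thus had a called more positive response and 1 a called more negative one, against 20.2% and 25.6% of all genes tested. The calls for M433DRAFT_68557, M433DRAFT_82096 and M433DRAFT_156112 were lost when single libraries were left out, with differences then as low in size as 0.16, 0.11 and -0.21.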

How the results depend on the processing

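Under every alternative run the percentage of members called moved by less than 1.5 times, except for copper in WT fitted on WT libraries only. That fit gave 14.6% against 23.6%. Fits on only the groups compared gave 74.7% for copper in ∆ArAceA, and 77.5% and 66.9% for the genotypes without and with copper. Why copper in WT had fewer calls was not tested. Within the limit of 1.5 times scaling still mattered for the genotype comparison with copper. It had 56.7% of members called as deposited, 84.3% under median-of-ratios scaling and 70.8% when scaled to the FPKM outside the members. Leaving out single libraries gave 16.9 to 30.3% for the copper response of WT (lowest without WT replicate 3, highest without WT replicate 1), 59.0 to 62.4% for that of ∆ArAceA, 76.97 to 83.1% and 46.1 to 56.2% for the genotype comparison without and with copper, and 45.5 to 64.0% for the difference of responses. The share of FPKM moved with the member limit. In WT, WT with copper, ∆ArAceA and ∆ArAceA with copper it was 59.5, 59.3, 54.3 and 55.7% with a limit of 500 FPKM (307 genes), 33.9, 34.1, 28.7 and 31.5% with 2000 FPKM (87 genes), 45.5, 45.3, 40.2 and 42.9% for the 153 genes at 1000 FPKM or more in every library, and 48.5, 48.3, 42.5 and 44.8% without the most abundant gene. Without single replicates it ranged from 49.2 to 49.7% in WT, 49.2 to 49.4% in WT with copper, 43.4 to 43.6% in ∆ArAceA and 45.7 to 46.0% in ∆ArAceA with copper. No call of a named member changed direction. Libraries of the same replicate number did not deviate together (r from -0.17 to 0.07 over 18 pairs), so no shared effect of the number was seen. Whether cultures were handled in batches by number cannot be told from this. With the replicate block 20.2% and 61.2% of members were called for the copper response of WT and ∆ArAceA, 80.9% and 53.4% for the genotypes without and with copper and 48.9% for the difference of responses.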

Other observations

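A few abundant transcripts varied between replicate cultures far more than the rest. Within a group the median coefficient of variation of the members was 5.69% in WT, 3.33% in WT with copper, 3.69% in ∆ArAceA and 2.42% in ∆ArAceA with copper. In WT 7 members exceeded 20%, and in all 7 the lowest library was WT replicate 2. Over all members WT replicate 1 was lowest for 112, replicate 2 for 41 and replicate 3 for 25. A set of 3 members, M433DRAFT_6878, M433DRAFT_69260 and M433DRAFT_154462, exceeded 20% in WT and in both copper groups. M433DRAFT_154462 stood at 2380, 1089 and 2418 FPKM in WT, 1638, 1793 and 995 FPKM in WT with copper, 1139, 1323 and 998 FPKM in ∆ArAceA, and 493, 534 and 296 FPKM in ∆ArAceA with copper. In ∆ArAceA with copper, replicate 2 was the highest library for each of the 3 genes.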
